A study of Homo sapiens with 6 samples.

Results

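The genes described here are 10 genes of insulin signalling and of FOXO feedback on it: the receptors INSR and IGF1R, the adaptors IRS1 and IRS2, the transcription factors FOXO1, FOXO3 and FOXO4, the PI3K genes PIK3IP1 and PIK3R1, and SESN3. They were taken by name from probe sets that list exactly 1 gene symbol, with the brightest set kept for each gene, and all 10 were found among 18417 genes measured. RNA came from A375, an established human melanoma cell line that carries a mutation of the RAF kinase which vemurafenib, a melanoma drug, inhibits. Cells in serum-containing medium received either 0.1% DMSO as vehicle (3 arrays) or vemurafenib at 10 µM (3 arrays) and were collected after 24 h. No DMSO percentage was recorded here for the vemurafenib arrays. Each group's 3 arrays came from different cell stocks on different days. All cells were of this 1 line, so the values describe A375 and not melanoma in general.

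Insulin and the IGFs bind the receptors encoded by INSR and IGF1R, which phosphorylate IRS adaptors. The adaptors recruit PI3K, whose lipid product activates the kinase AKT, and AKT phosphorylates FOXO proteins and so keeps them out of the nucleus. When AKT activity is low, FOXO proteins enter the nucleus and switch on genes that include INSR, IRS2 and sestrins, a feedback known from flies to mammals. Phosphorylation, location and protein levels were not measured, so the arrays speak to RNA alone.

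With vemurafenib, PIK3R1 rose 2.07-fold, FOXO4 1.78-fold and IRS2 1.29-fold, while IRS1 fell 1.74-fold. SESN3 rose most, 6.97-fold between array values, but its vehicle level lay below 7.28, the 95th percentile of olfactory receptor genes, so that this fold is not well bounded. PIK3IP1 passed the test upward, but both of its levels (6.68 and 6.90) lay below 7.28 and its call was lost in 11 of 15 alternatives. INSR, IGF1R, FOXO1 and FOXO3 did not pass the test. For FOXO3 this holds for the set that names it alone, which read 7.61 and 7.57, not far above 7.28. A second set, shared with its copy FOXO3B, rose by 0.94. In all, 6 of 10 genes passed limma with Benjamini-Hochberg adjustment over all genes at a threshold of 0.05, against 45.5% of all genes tested. Of the 10, 5 passed as higher (50%, against 23.2% of all genes) and 1 as lower (10%, against 22.2% of all genes). At least 2-fold changes were seen in 2 of the 10, both upward, against 5.69% of all genes in either direction and 3.07% upward. The groups of arrays did not overlap for 7 of the 10, against 55.4% of all genes. With so many genes passing, the count of 6 lies near its background, and it is the sizes and directions that are given below.

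**Figure D1:**
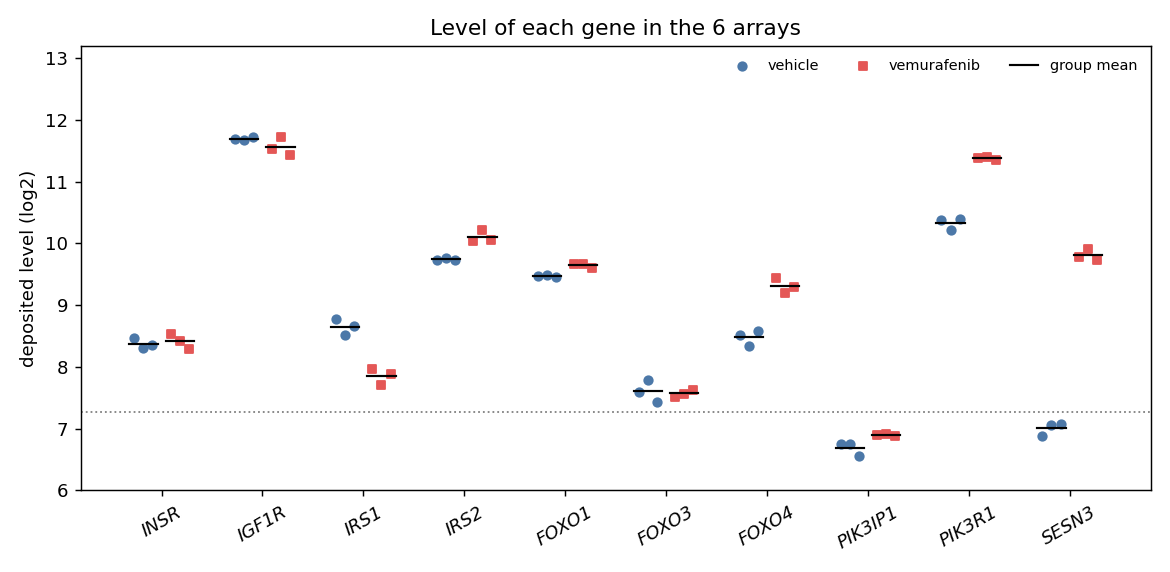
Deposited log2 level (vertical axis) of each of the 10 genes in the 3 vehicle arrays (circles) and the 3 vemurafenib arrays (squares), with group means as bars and, as a dotted line, the 95th percentile of olfactory receptor genes (7.28). SESN3 moves from below that line to 9.81, PIK3IP1 stays below it in both groups, and heights of different genes are not comparable because each has its own probes.

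Values are log2 levels per probe set, changes are vemurafenib minus vehicle on the log2 scale, and errors of levels are SDs over 3 arrays. Array medians over all 33297 probe sets lay between 7.69 and 7.73, and no array was left out of the main test. The drug's known readout was taken from a list of ERK pathway output. All 17 of its measured genes passed as lower, against 22.2% of all genes, with a median change of -1.72. That list was chosen with earlier results of these data known, so its count is a description and not independent evidence. Of melanocyte markers, SOX10, MITF and S100B rose and had vehicle means of 11.48, 10.17 and 10.30, whereas PMEL (6.60 and 6.72 in vehicle and drug) did not pass and TYR, TYRP1 and MLANA lay between 5.17 and 5.78 in both groups, near the olfactory receptor medians of 5.55 (vehicle) and 5.45 (vemurafenib). The mean level of 6 fibroblast markers ran from 7.14 to 7.31 over vehicle arrays and from 7.49 to 7.70 over vemurafenib arrays, with DCN and LUM the 2 of 6 that passed. DCN (5.46 and 6.92) lay below 7.28 in both groups and LUM went from 8.58 to 9.70. The other 4, COL1A1, COL1A2, COL3A1 and PDGFRA, did not pass, with changes of 0.01, -0.15, -0.04 and -0.24, and the median change of the list was -0.01. The means of 4 keratinocyte markers (7.41 to 7.56 in vehicle, 7.37 to 7.65 with drug) overlapped between groups, and none of KRT1, KRT5, KRT10 and KRT14 passed (changes of -0.12, 0.10, 0.01 and 0.27). KRT14 (8.68 and 8.95) missed narrowly, with a limma adjusted p of 0.0501. It stayed short in 10 of 17 alternatives and passed upward in the rest, among them without vehicle replicate 2 (0.0129) or vemurafenib replicate 2 (0.028). The means of 5 endothelial markers (6.64 to 6.80 against 6.45 to 6.59) and of 4 leukocyte markers (6.18 to 6.24 against 6.13 to 6.14) did not overlap and were lower with drug. KDR (8.42 and 7.98) and PECAM1 (5.74 and 5.42) passed among the former and CD14 (6.76 and 6.44) among the latter. The call of PECAM1 was lost without vehicle replicate 2, with an adjusted p of 0.0526 from limma, and without vemurafenib replicate 1 (0.0593) or 2 (0.0632). CDH5, TEK and VWF (changes of -0.26, 0.02 and 0.04) and CD3E, CSF1R and PTPRC (-0.16, 0.04 and 0.12) did not pass, and all of these markers except KDR lay below 7.28 in both groups. The part of any of these in the changes below was not tested. In RNA pooled from a dish, a change in the mix of cells and a change of RNA per cell cannot be told apart.

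Sequence at the annotated start is shown for 4 of the genes that passed upward: SESN3, because it changed most, and IRS2, FOXO4 and PIK3IP1, because theirs hold 1 of the motifs searched. RefSeq start regions (GRCh38.p14, 250 bases before to 50 after each annotated start) were found for all 10 genes, as 17 windows. They were searched on both strands for the FOXO binding element GTAAACA and for CAAAACA, the core of the insulin response element through which FOXO proteins also bind. The first was in 2 of the 17 windows and in 3.42% of all 35116 windows. The second was in 1 of the 17 and in 4.92% of all. The motifs share letters but no match of 1 overlapped a match of the other in these genes, and capitals mark a match in either orientation. The stretches lie, in order, at chr11:95232476-95232725 (minus strand, the 250 bases before the start), chr13:109786584-109786833 (minus strand, the 250 bases before the start), chrX:71095863-71095892 (plus strand, match beginning 23 bases after the start) and chr22:31292454-31292483 (minus strand, match beginning 16 bases after 1 of 2 annotated starts).
SESN3: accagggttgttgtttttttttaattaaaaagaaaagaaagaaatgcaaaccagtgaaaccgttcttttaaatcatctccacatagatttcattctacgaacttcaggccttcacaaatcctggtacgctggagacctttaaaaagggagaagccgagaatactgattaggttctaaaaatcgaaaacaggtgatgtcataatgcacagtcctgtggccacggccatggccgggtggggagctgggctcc
IRS2: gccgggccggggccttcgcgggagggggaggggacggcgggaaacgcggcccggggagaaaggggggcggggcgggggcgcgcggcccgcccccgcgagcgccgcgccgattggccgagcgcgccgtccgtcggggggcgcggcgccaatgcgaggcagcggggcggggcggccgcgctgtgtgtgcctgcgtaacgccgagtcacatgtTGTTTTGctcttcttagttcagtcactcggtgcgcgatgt
FOXO4: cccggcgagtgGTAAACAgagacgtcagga
PIK3IP1: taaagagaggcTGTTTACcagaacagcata
The match in IRS2 begins 40 bases before the start and is the reverse complement of CAAAACA. SESN3, PIK3R1, IRS1, INSR, IGF1R, FOXO1 and FOXO3 had neither run of letters in their windows, which says nothing about binding elsewhere. A match is a run of letters and was not tied to any measurement of binding.

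Neither receptor gene passed the test. INSR, the insulin receptor, stood at 8.46, 8.31 and 8.35 in the vehicle arrays and at 8.53, 8.42 and 8.29 with vemurafenib. The groups overlapped, and the change was 0.04 (95% interval -0.14 to 0.22, limma adjusted p 0.731), so a rise of INSR beyond 0.22 lies outside the interval. IGF1R, the IGF1 receptor, is read by 2 probe sets. The brighter was tight in vehicle (11.70, 11.68 and 11.72) and scattered with drug (11.53, 11.72 and 11.44). Its change was -0.13 (interval -0.32 to 0.05, limma adjusted p 0.21), and vemurafenib replicate 2 lay at the level of the highest vehicle array. The dimmer set gave -0.16 (interval -0.40 to 0.08, limma adjusted p 0.281 over all probe sets). Both sets of IGF1R thus had group means below vehicle with drug by amounts that did not pass.

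The 2 IRS adaptors moved in opposite directions. IRS1, which couples both receptors to PI3K, had levels of 8.77, 8.52 and 8.66 in vehicle and of 7.97, 7.71 and 7.88 with vemurafenib. Every vemurafenib array lay below every vehicle array, with means of 8.65 ± 0.13 and 7.86 ± 0.13 (SD, n = 3). The change was -0.80 (SE 0.09, interval -0.997 to -0.596, limma adjusted p 2.54e-05). IRS2, the adaptor whose gene FOXO proteins are known to switch on, went from 9.74, 9.76 and 9.73 to 10.04, 10.22 and 10.06. The groups lay apart again, this time upward, by 0.36 (SE 0.07, interval 0.20 to 0.53, limma adjusted p 0.00188). Taken within arrays, the change of IRS2 exceeded that of IRS1 by 1.16. An exact 2-sided permutation test of this difference gave p = 0.10, the smallest that 3 against 3 arrays allow, and 0.133 after adjustment over 4 such pairs, which were chosen after their values were seen. Of the other pairs, INSR less IGF1R (0.17) gave an exact permutation p of 0.20 (0.20 adjusted). FOXO4 less FOXO1 (0.65) gave 0.10 (0.133 adjusted) in that test, and the remaining pair, 2 sets of FOXO3, is given below.

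**Figure D2:**
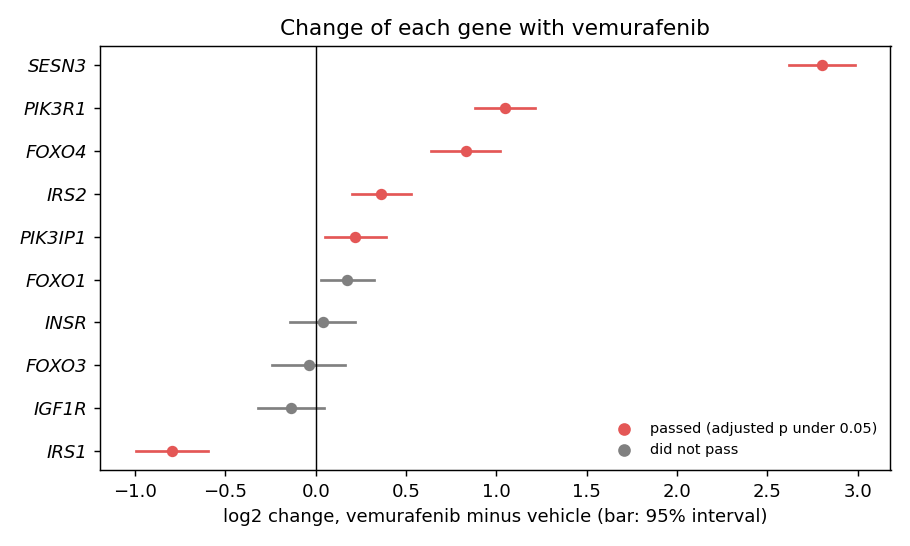
Log2 change with vemurafenib (horizontal axis, vemurafenib minus vehicle) of each gene, with its 95% interval as a bar and genes past the threshold in red. SESN3 stands at 2.80, apart from PIK3R1 at 1.05 and FOXO4 at 0.83, whose intervals overlap each other, and IRS1 at -0.80 is the 1 gene that passed below 0.

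PIK3R1 encodes p85 alpha, the regulatory subunit that holds the PI3K catalytic subunit stable and inhibited until it binds phosphorylated adaptors. Its levels were 10.39, 10.22 and 10.39 in vehicle and 11.39, 11.40 and 11.35 with vemurafenib. The drug arrays agreed closely and all lay above vehicle. Means were 10.33 ± 0.10 and 11.38 ± 0.02 (SD, n = 3), a change of 1.05 (SE 0.07, interval 0.88 to 1.21, limma adjusted p 6.08e-07). PIK3IP1 encodes a membrane protein that binds and inhibits the PI3K catalytic subunit. It read 6.75, 6.75 and 6.55 in vehicle and 6.90, 6.92 and 6.89 with drug. The groups did not overlap, but both means (6.68 and 6.90) lay below 7.28, the 95th percentile of olfactory receptor genes, a class hardly expressed outside the nose, so the gene was not shown to be above background. Its change of 0.22 (interval 0.05 to 0.39, limma adjusted p 0.0374) passed narrowly and was lost in 11 of 15 alternatives, over which the adjusted p ran from 0.0172 to 0.163. It was lost without vehicle replicate 1 (limma adjusted p 0.0512) or 3 (0.163) and without vemurafenib replicate 1 (0.0902), 2 (0.0886) or 3 (0.0563).

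SESN3 encodes sestrin 3, which restrains mTORC1 and is a known target of FOXO proteins. The vehicle arrays read 6.88, 7.05 and 7.08 and the vemurafenib arrays 9.79, 9.91 and 9.72. This was the widest gap of the 10 genes, with means of 7.01 ± 0.11 and 9.81 ± 0.10 (SD, n = 3) and a change of 2.80 (SE 0.08, interval 2.62 to 2.98, limma adjusted p 1.37e-09). The vehicle mean lay below 7.28, so background limits the fold, which is a ratio of array values and not of RNA molecules. The other sestrin genes moved less: SESN1 rose by 0.70 (SE 0.11). SESN2 stood 0.18 higher (SE 0.07, limma adjusted p 0.0451), a call lost in 12 of 17 alternatives, among them the fits without vehicle replicate 1 (0.114), 2 (0.0665) or 3 (0.101) and without vemurafenib replicate 1 (0.126) or 2 (0.118). The genes whose centred profile over the 6 arrays lay nearest to that of SESN3 were ID2 (Euclidean distance 0.19), LSAMP (0.24), LRP1B (0.25) and TCP11L2 (0.27), with changes between 2.64 and 2.79. For IRS1, the lowest of the 10 by change, they were CDT1 (0.07), HSP90AA4P (0.08), PPAT (0.09) and ZFP42 (0.09), with changes of -0.83 to -0.78. Such a distance takes in the size of the change as well as its shape, and the probes of HSP90AA4P, a pseudogene, may also read its near-identical relatives.

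The 3 FOXO genes differed in what their sets showed. FOXO4 read 8.52, 8.35 and 8.58 in vehicle and 9.44, 9.20 and 9.30 with vemurafenib. All drug arrays lay above vehicle, by 0.83 on average (SE 0.09, interval 0.64 to 1.02, limma adjusted p 1.33e-05). FOXO1 read 9.47, 9.49 and 9.46 in vehicle and 9.67, 9.67 and 9.60 with drug. Its groups also lay apart, but the change of 0.18 (interval 0.03 to 0.32) missed the threshold, with a limma adjusted p of 0.0523. It passed in 4 of 17 alternatives, among them the fit without vemurafenib replicate 3 (limma adjusted p 0.0496), over a range of 0.0129 to 0.163.

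FOXO3 depended on which probe set was read. The set that names FOXO3 alone (8121365) gave 7.60, 7.80 and 7.44 in vehicle and 7.52, 7.56 and 7.63 with vemurafenib, so the groups overlapped and the change was -0.04 (interval -0.24 to 0.17, limma adjusted p 0.762). A second set (8013307) names FOXO3 together with FOXO3B, a near-identical copy of FOXO3 elsewhere in the genome, and was kept out by the selection rule. It read 11.10, 10.96 and 11.14 in vehicle and 11.99, 11.94 and 12.07 with vemurafenib. That is a change of 0.94 (SE 0.08, interval 0.75 to 1.12), 1.91-fold higher, with a limma adjusted p of 0.000133 over all 33297 probe sets. The difference of 0.97 between the changes of the 2 sets had an exact 2-sided permutation p of 0.10, the smallest possible (0.133 adjusted over the 4 pairs). Signal from FOXO3 and from its copy cannot be told apart on the shared set, and which set follows FOXO3 RNA was not tested. With the shared set standing for FOXO3, a choice made after its values were seen, 6 of the 10 genes were higher and 1 lower.

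**Figure D3:**
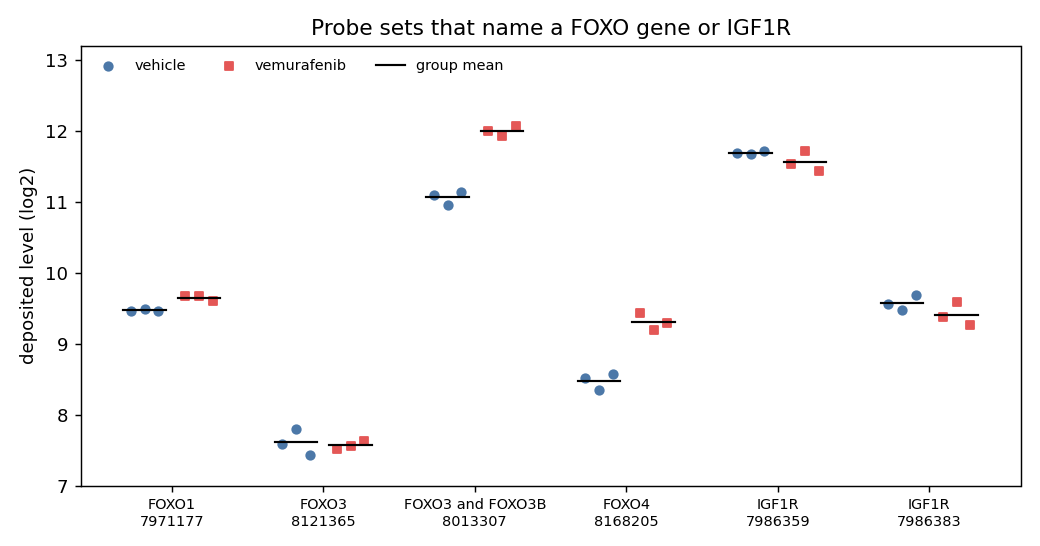
Deposited log2 level (vertical axis) in each array for the probe sets that name a FOXO gene or IGF1R, by set number, with vehicle as circles, vemurafenib as squares and group means as bars. The set shared by FOXO3 and FOXO3B rises by 0.94 while the set of FOXO3 alone overlaps between groups, and both IGF1R sets overlap.

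Genes around the 10 were read from lists, given as counts beside the same over all genes (23.2% higher, 22.2% lower, median change -0.05). Among 9 measured ligands and IGF-binding proteins, 2 rose and 2 fell, with a median of -0.18. IGFBP5, an IGF-binding protein, rose by 2.75 (from 8.15 ± 0.07 to 10.90 ± 0.15, SD, n = 3), and IGF2R, the receptor that clears IGF2, by 0.44. IGFBP4 and IGFBP3 fell by 1.13 and 1.07 on the log2 scale. When arrays were centred on their medians, 5 genes of this list were lower in place of 2.

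Among 20 adaptors and receptor-level regulators, 7 rose and 6 fell, with a median of -0.03. The largest change was that of GAB1, a docking protein that recruits PI3K and the phosphatase SHP2, which went from 8.97 ± 0.01 to 10.50 ± 0.09 (SD, n = 3). The mean of its probe sets changed by 0.78, against 1.53 for the brightest set. DOK5, below 7.28 in both groups (6.19 and 6.78), ENPP1, an inhibitor of the insulin receptor, and SOCS2, a suppressor of cytokine signalling, rose by 0.59, 0.56 and 0.55. IRS4, a further IRS gene named here for its family, fell by 0.41 on the log2 scale between means of 6.32 and 5.91, both below 7.28.

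Of 11 PI3K subunits other than PIK3R1, 3 rose and 1 fell, with a median of 0.03. PIK3C2B, a class II catalytic enzyme, rose by 1.16, the regulatory subunit PIK3R3 by 0.36 and PIK3C3, the class III enzyme of autophagy, by 0.35, while PIK3R4, its partner, fell by 0.27 on the log2 scale, a call lost without vehicle replicate 3 (limma adjusted p 0.0612). Leaving out vehicle replicate 2, vemurafenib replicate 1 or vemurafenib replicate 3 gave 2 lower in place of 1. Centring on array medians gave 5 lower, and repeated quantile normalization 5 higher in place of 3. Of 8 phosphatases that reverse PI3K or AKT signalling, 4 rose and 1 fell, with a median of 0.16. INPP5D (SHIP1) rose by 1.01, INPPL1 (SHIP2) by 0.74, INPP5J by 0.30 and PHLPP1 by 0.23. The rise of PHLPP1 was lost without vehicle replicate 1 (limma adjusted p 0.0508) or 3 (0.0569) or vemurafenib replicate 1 (0.0555), and with the mean of its probe sets (0.155). The fall of PHLPP2 (-0.22) was lost without vehicle replicate 3 (0.104) or vemurafenib replicate 3 (0.0678) and with a fixed replicate block (0.0592). INPP4A, INPP4B and INPP5E did not pass, with changes of -0.05, -0.15 and 0.09.

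Of 10 kinases of the AKT branch, 1 rose and 4 fell, with a median of -0.15. The Tribbles pseudokinase genes TRIB2, TRIB1 and TRIB3 fell by 1.73, 0.78 and 0.58 on the log2 scale. TRIB2 is known as a repressor of FOXO. AKT1, named after its value was seen, stood 0.20 lower (limma adjusted p 0.0436), a call lost in 11 of 17 alternatives, among them the fits without vehicle replicate 1 (0.113), 2 (0.0792) or 3 (0.0777) and without vemurafenib replicate 2 (0.118) or 3 (0.101). SGK1, an AKT-like kinase that also phosphorylates FOXO proteins, rose by 0.49. Of 24 genes of the mTOR complexes, their regulators and substrates, 7 rose and 4 fell, with a median of 0.05. DEPTOR, an mTOR inhibitor, rose by 0.77, TSC2 and TSC1, the brakes on mTORC1, by 0.53 and 0.32, and MTOR itself by 0.45. SEH1L, which is also a nuclear pore protein, fell by 0.999 on the log2 scale, EIF4EBP1, an mTORC1 substrate that blocks translation, by 0.81 and RHEB, the activator of mTORC1, by 0.34. SESN1, named above, belongs to this list too.

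**Figure D4:**
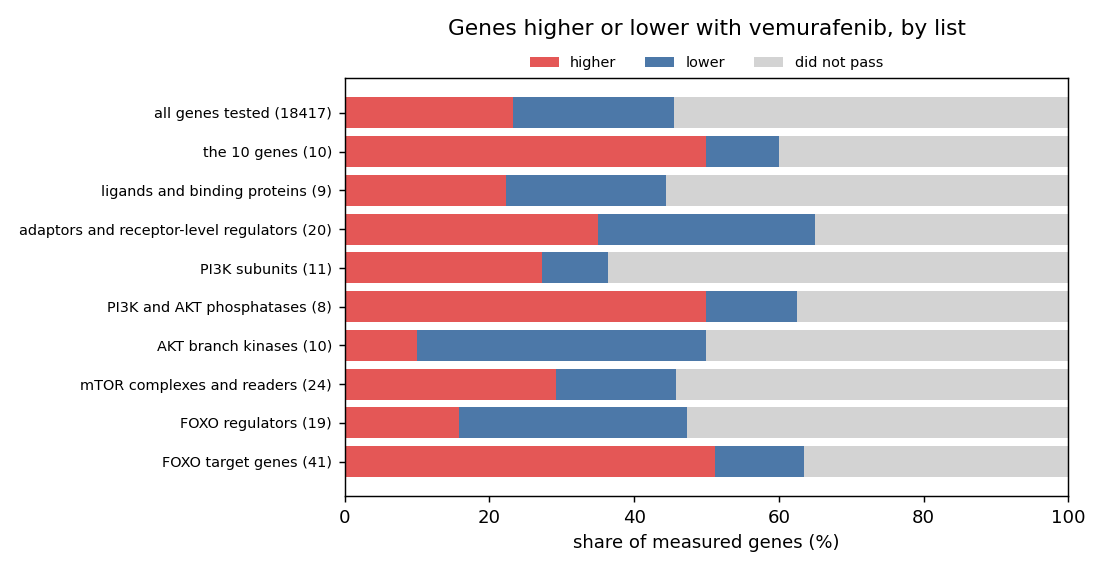
Share of measured genes (horizontal axis, %) that were higher, lower or did not pass with vemurafenib, for each list with its number of measured genes in brackets. The top bar gives all 18417 genes, of which 45.5% passed, and the bar of FOXO target genes has 21 of 41 higher and 5 lower.

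Of 19 measured genes whose proteins modify, bind or move FOXO factors, 3 rose and 6 fell, with a median of -0.08. KAT2B, an acetyltransferase, rose by 1.82. CDK2, the S phase kinase, fell by 1.22, YWHAH, a 14-3-3 protein, by 0.83, and SKP2, a ubiquitin ligase subunit that targets FOXO1, by 0.75. Genes described in the literature as bound or controlled by FOXO proteins, other than the 10, numbered 41. Of these 21 rose (51.2% against 23.2% of all genes), 5 fell and 15 did not pass, and their median change was 0.23 against -0.05 for all genes. The list was drawn up with some of these changes already known, so its count is a description and not independent evidence of a direction.

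The largest changes of that list were those of TXNIP (2.95), which limits glucose uptake, CCND1 (-2.49), the cyclin D1 gene, which FOXO represses and which also belongs to the list of ERK pathway output, TP53INP1 (2.29), an autophagy and p53 pathway gene, and PPARGC1A (2.11), a coactivator of mitochondrial biogenesis, from a dim 6.64. PDE4B, a cAMP phosphodiesterase, rose by 1.01, PINK1, a kinase of mitochondrial quality control, by 0.94 and BTG1, an antiproliferative factor, by 0.76. TRIB1 fell by 0.78 on the log2 scale. Among those that did not pass, chosen here as textbook targets after their values were seen, were the gluconeogenic genes G6PC1 (5.61 and 5.63 in vehicle and drug) and PCK1 (6.46 and 6.45) and the death ligand TNFSF10 (4.57 and 4.56), all below 7.28. CCND2, the other target that FOXO represses, stood at 6.12 and 6.02. Targets above 7.28 in both groups also did not pass. BBC3, GADD45A, KLF2 and IGFBP1 changed by -0.02, -0.14, -0.18 and -0.22. RICTOR, KLF15, SOD2 and FBXO32 changed by 0.10, 0.13, 0.21 and 0.23. Besides CCND1 and TRIB1, the targets that fell were KLF6 (-0.73), BNIP3 (-0.60) and PRDX3 (-0.29), with vehicle means of 9.12, 12.30 and 12.13. Counts of higher targets ran from 19 to 22 over 17 alternatives. With arrays centred on their medians, 9 were lower in place of 5, and with array weights 8.

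**Figure D5:**
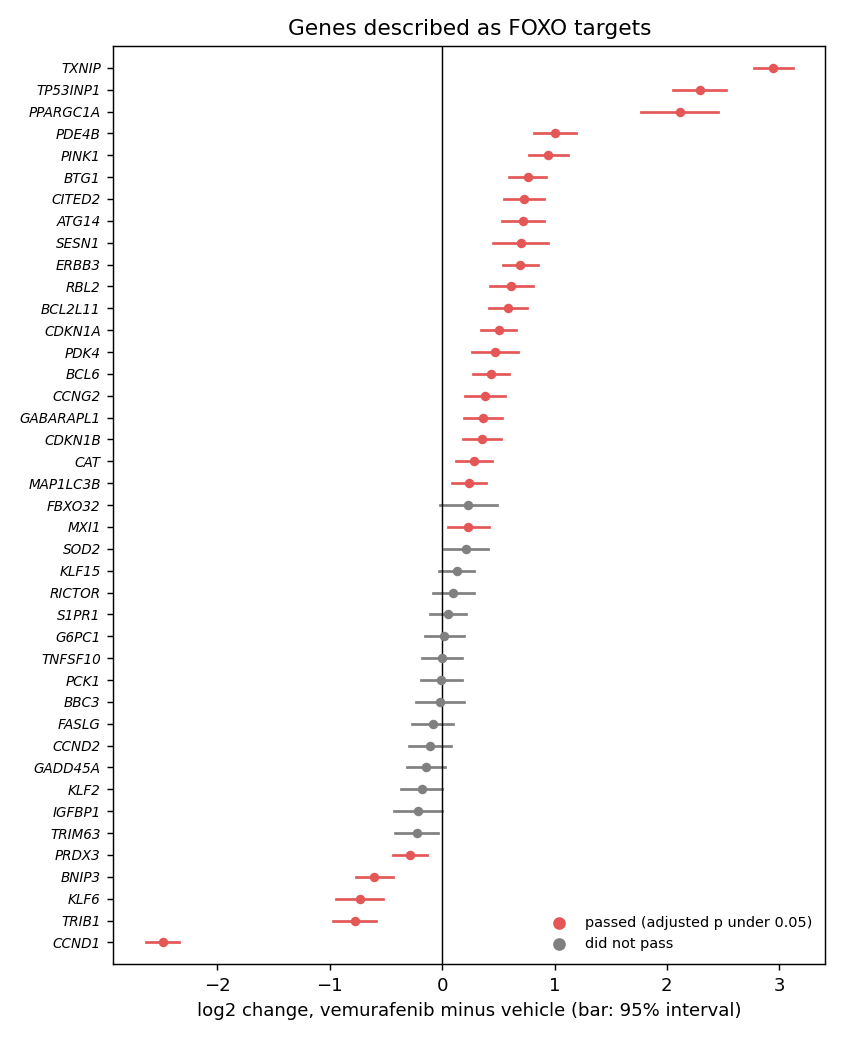
Log2 change with vemurafenib (horizontal axis, vemurafenib minus vehicle) of 41 genes described as FOXO targets, with 95% intervals and genes past the threshold in red. TXNIP at 2.95 and CCND1 at -2.49 mark the ends, and 15 genes in grey did not pass.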

How the data were processed

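RNA of 6 dishes was measured on single-colour Affymetrix arrays. The deposited values are log2 levels of 33297 probe sets, with RMA and Partek being the tools that the submitters' processing notes list; RMA compresses large folds. The genome build is not given in the sources used here, nor are summarization level and batch handling. Platform annotation of 2016 named 19460 sets with 1 symbol, 1754 with several and 12083 with none. Of the first, 19429 matched current RefSeq genes. The brightest set per gene was kept (18417 genes), with no filter on dim genes.

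Groups came from sample titles. Groups were compared with limma 3.58.1 under R 4.3.3 (lmFit, eBayes, group as the only term, 2-sided, Benjamini-Hochberg over all genes, threshold 0.05, intervals of 95%), tested on simulated data. Replicate numbers were not used as pairs: the design text pairs dishes, but the labels do not show which, and deviations of same-numbered arrays correlated at 0.14, -0.18 and -0.25. Of differently numbered pairs, vehicle 2 with vemurafenib 3 (0.28) and vehicle 3 with vemurafenib 2 (0.22) correlated most; no pairing was taken from the values. Arrays carry no depth, so their number limits precision.

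The genes and lists were chosen with earlier results of these data known. Lists held 202 entries, of which 185 were measured; the others are not analysed here. Genes were named by a rule: all 10 members, the 4 most changed genes past the threshold in each list (8 for FOXO targets and mTOR genes), any gene of a list of 8 or fewer measured, and the 4 genes nearest in profile to the largest riser and faller. Other names were chosen after their values were seen. Alternatives were a replicate block (fixed, or random with statmod 1.5.0), a threshold of 0.01, median centring, repeated quantile normalization, filters on the dimmest 25% or 50%, averaging a gene's sets, testing every set, a robust trended prior, array weights and leaving out each array. Median centring used the median of each array over the 18417 genes and not over all probe sets. The shared FOXO3 set was added after the data were seen. Figures were drawn with Python 3.11.15 and matplotlib 3.10.9.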

Additional observations from a re-analysis of the deposited data

How the results depend on the processing

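Over 17 alternatives, INSR, IGF1R, IRS2, FOXO4, PIK3R1 and SESN3 kept their side of the threshold in all 17, IRS1 in all 16 that could be fitted and FOXO3, read from its own set, in all 16. INSR changed sign without passing, over a range of -0.02 to 0.10. So did FOXO3 from its own set, which read 0.05 without vehicle replicate 2 and -0.12 without vehicle replicate 3. The change of SESN3 ran from 2.74 to 2.84, of PIK3R1 from 0.99 to 1.09, of FOXO4 from 0.76 to 0.88, of IRS2 from 0.30 to 0.40 and of IRS1 from -0.86 to -0.73. Read from the set shared with FOXO3B, FOXO3 turned from -0.04 to 0.94. The number of the 10 genes that were higher ran from 4 to 6. The number lower was 1 throughout, except 0 without the dimmest 50% of genes, which leaves out IRS1 itself, FOXO3 and PIK3IP1.

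With a replicate block, fixed or random, 4 of the 10 were higher and 1 lower, PIK3IP1 being lost (change 0.22, limma adjusted p 0.0592 and 0.051), and 7606 or 7923 genes passed in place of 8371. The labels give these arrays only a number in common, so this block may not be the pairing of the design text, which was not fitted. Over all genes, the 4281 higher and 4090 lower became 3682 and 5630 when arrays were centred on their medians. Over the other alternatives the total ran from 5960 to 9718, the lowest being out of only 9208 genes, those left without the dimmest 50%. For the 14 lists and the totals by direction, 494 of 540 recomputed counts stayed within 1.5 times, 30 were larger and 16 smaller. Low signal limits PIK3IP1 in both groups and SESN3 in vehicle.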
